A study of Mus musculus with 8 samples.

Results

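The genes described here carry glucose into the cell, act at early steps of glycolysis or convert pyruvate and lactate into each other. They were measured in outflow tracts of mouse hearts with and without Mef2c in the anterior heart field. They are 10 genes taken by symbol from the deposited table, out of 33495 rows and 14757 genes that were tested: the glucose transporters Slc2a1, Slc2a3 and Slc2a4, the hexokinases Hk1 and Hk2, the phosphofructokinase subunits Pfkl, Pfkm and Pfkp, and the lactate dehydrogenase subunits Ldha and Ldhb. Each symbol had 1 row, and all 10 passed the filter on low counts. The mutant group was 4 libraries from hearts with a Mef2c knockout conditional on the anterior heart field (AHF), the progenitor pool that builds the outflow tract and right ventricle. The other group was 4 libraries labelled wild type, and both groups were on the CD-1 background. Other cells of the mutant tissue keep the gene under such a design. The driver of the knockout, the embryonic stage, the number of embryos in a sample and their litters were not stated in the labels. The spread behind each p-value is therefore that of these 8 samples, and some of it may be technical.

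Glucose enters cells down its gradient through the GLUT family of carriers. GLUT1, encoded by Slc2a1, is the main carrier of embryonic heart, GLUT3, encoded by Slc2a3, is a high-affinity carrier best known from neurons and early embryos, and GLUT4, encoded by Slc2a4, is the carrier that insulin brings to the surface of muscle and fat cells. Hexokinase traps glucose as glucose 6-phosphate, phosphofructokinase commits it to glycolysis, and lactate dehydrogenase converts pyruvate and lactate into each other. The embryonic heart relies strongly on glycolysis, and MEF2 factors are known to act on the Slc2a4 promoter in muscle.

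Total counts ran from 7138732 to 11012246 per library, of which the 10 genes took 0.232% to 0.376%. Levels of 1 gene are given as CPM, counts scaled to a common library size (edgeR's TMM method), and levels set side by side between genes as RPKM, the CPM divided by the deposited exon length in kilobases. A gene was called changed when its Benjamini-Hochberg adjusted p by edgeR's quasi-likelihood test was under 0.05 over all genes tested. The groups differed in 222 genes, 83 higher and 139 lower in mutant. Mef2c (ENSMUSG00000005583), the targeted gene, had 1390, 1150, 1227 and 1423 reads in mutant libraries 1 to 4, against 1207, 946, 791 and 728 reads in wild-type libraries 1 to 4. Its level of 140.8 ± 14.5 CPM in mutant and 112.6 ± 12.8 CPM in wild type (SD, n = 4 each) did not differ past the threshold (log2 fold change 0.32, adjusted p = 0.212, edgeR). A count over the whole gene also takes in exons that a conditional allele leaves in place, so it does not check the labels. The exon test of the authors' deposited table ranked Mef2c first of all rows. Each group held 2 libraries on lane 1 (replicates 1 and 2) and 2 on lane 2 (replicates 3 and 4). In whole tissue, fewer cells of a type and less RNA per cell cannot be told apart.

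Of the 10 genes, Slc2a3 fell in mutant and the other 9 were not called. The background was 0.942% of tested genes called lower, 0.562% called higher and 1.50% called in all. Log2 fold changes, mutant over wild type, were below 0 for 9 of the 10 genes, against 51.3% of all tested genes, and their median was -0.31, against -0.00587 for all tested genes. Library by library, 1 of the 10 had groups that did not overlap, where 6.72% of all tested genes had none (3.27% lower and 3.44% higher in mutant). That gene was again Slc2a3. The plot of CPM by library shows every value.

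**Figure D1:**
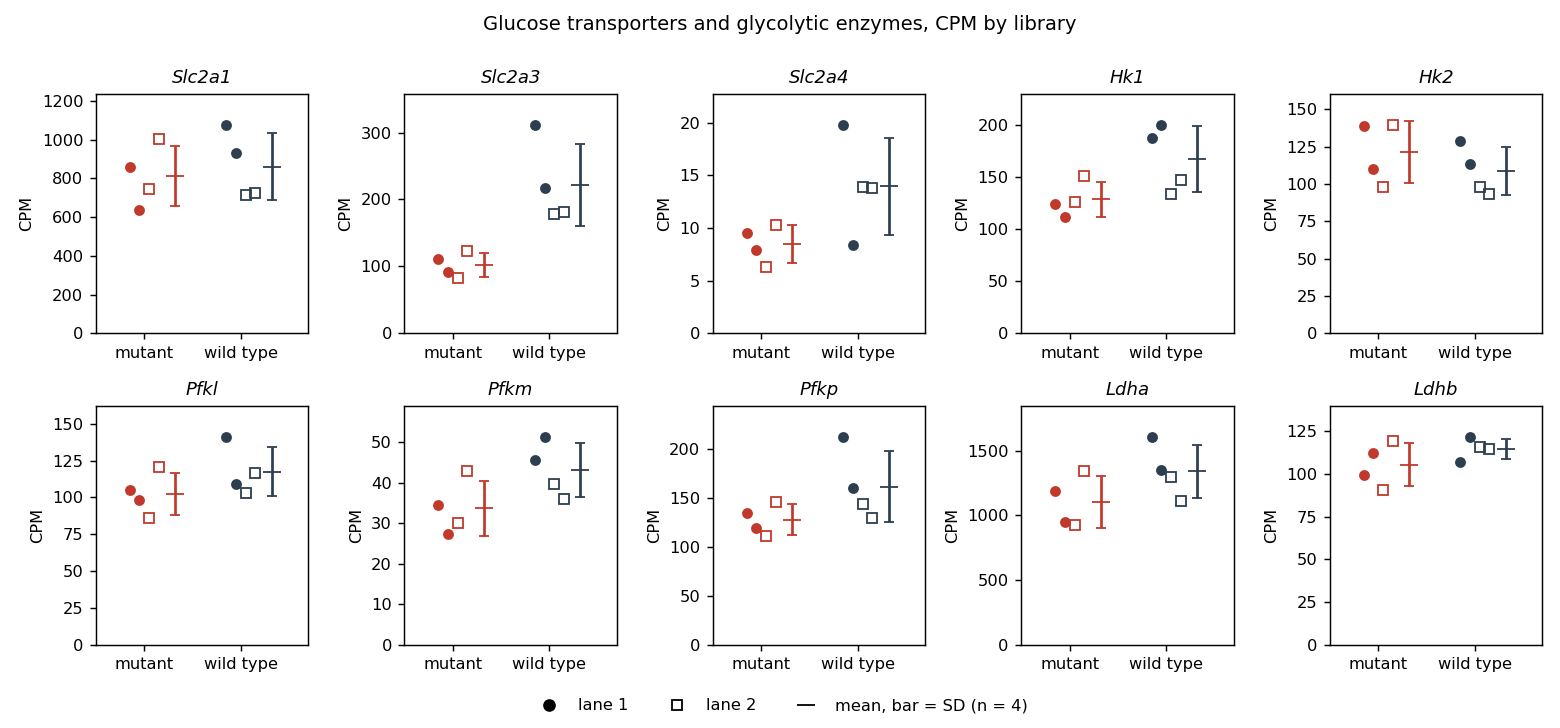
CPM of each of the 10 genes (vertical axis, from 0) in the 4 mutant and 4 wild-type libraries; filled circles are lane 1, open squares lane 2, and the dash with its bar is the mean and SD of 4. The 4 mutant values of Slc2a3, 82.4 to 122.6 CPM, lie below the 4 wild-type values, 178.2 to 310.6 CPM, while the groups overlap for the other 9 genes.

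Among these 3 transporters Slc2a3 (ENSMUSG00000003153, chromosome 6, 122677843 to 122692537, minus strand, mm9) differed most. It stood at 110.5, 92.2, 82.4 and 122.6 CPM in mutant libraries 1 to 4, against 310.6, 216.7, 178.2 and 180.8 CPM in wild-type libraries 1 to 4. Every mutant library was below every wild-type library, and wild-type library 1 stood above the other 3 of its group. The means were 101.9 ± 18.1 CPM in mutant and 221.6 ± 61.9 CPM in wild type (SD, n = 4 each). Slc2a3 thus fell by 1.12 on the log2 scale, with an SE of 0.188 and a 95% interval of -1.54 to -0.71 (adjusted p = 0.0143, edgeR), which is 0.459 of the wild-type level. The log2 fold change was -1.38 on lane 1 and -0.81 on lane 2, and the lanes did not differ past the threshold (adjusted p for group by lane = 0.368, edgeR). The call was lost without mutant library 2 (adjusted p = 0.0541, log2 fold change -1.08) and on lane 2 alone (adjusted p = 0.0782), where 2 libraries per group remain.

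Slc2a1 (ENSMUSG00000028645, chromosome 4, 118781316 to 118809935, plus strand) did not pass. Its level was 861.8, 639.2, 744.5 and 1004 CPM in mutant libraries 1 to 4, against 1074, 930.2, 715.0 and 725.6 CPM in wild-type libraries 1 to 4. The groups overlapped over most of their range, with a log2 fold change of -0.08 and a 95% interval of -0.44 to 0.27 (adjusted p = 0.900, edgeR). The sign differed between the lanes, at -0.42 on lane 1 and 0.28 on lane 2, a difference with an unadjusted p of 0.0150 that did not pass adjustment (adjusted p = 0.192, edgeR). It also turned positive without mutant library 2 (0.01) or wild-type library 1 (0.04). A gene on the other strand, AL606975.1, shares 3582 bases of its span and had 3820 reads against 59282 for Slc2a1. As the use of strand in counting is not given, part of these reads cannot be assigned with certainty.

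Slc2a4 (ENSMUSG00000018566, chromosome 11, 69756045 to 69761690, minus strand) was the least abundant of the 10. It had 86, 62, 64 and 103 reads in mutant libraries 1 to 4, against 213, 61, 101 and 101 reads in wild-type libraries 1 to 4. In CPM these were 6.28 to 10.3 in mutant and 8.39 to 19.8 in wild type, and wild-type library 2 fell inside the mutant range. The log2 fold change was -0.72 with a 95% interval of -1.26 to -0.19 and did not pass (adjusted p = 0.238, edgeR). Its values on the lanes were close, -0.71 on lane 1 and -0.74 on lane 2. Without mutant library 4 and wild-type library 2, each the highest of its group in chamber genes, it was -1.01 and was called lower (adjusted p = 0.0313, edgeR).

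The share of each carrier among the 3 was compared per length. Slc2a3 made up 8.57%, 9.53%, 7.50% and 8.20% of the summed RPKM of the 3 transporters in mutant libraries 1 to 4, against 17.4%, 14.6%, 15.3% and 15.3% in wild-type libraries 1 to 4. The ranges did not overlap, and the spread within each group was small, with means of 8.45% ± 0.845 in mutant libraries and 15.6% ± 1.2 in wild type (SD, n = 4 each). Slc2a1 held 90.6% ± 0.976 of the sum in mutant libraries and 83.0% ± 1.43 in wild type, and Slc2a4 held 0.924% ± 0.134 in mutant libraries and 1.32% ± 0.391 in wild type. Such shares follow from the levels above and were not tested.

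**Figure D2:**
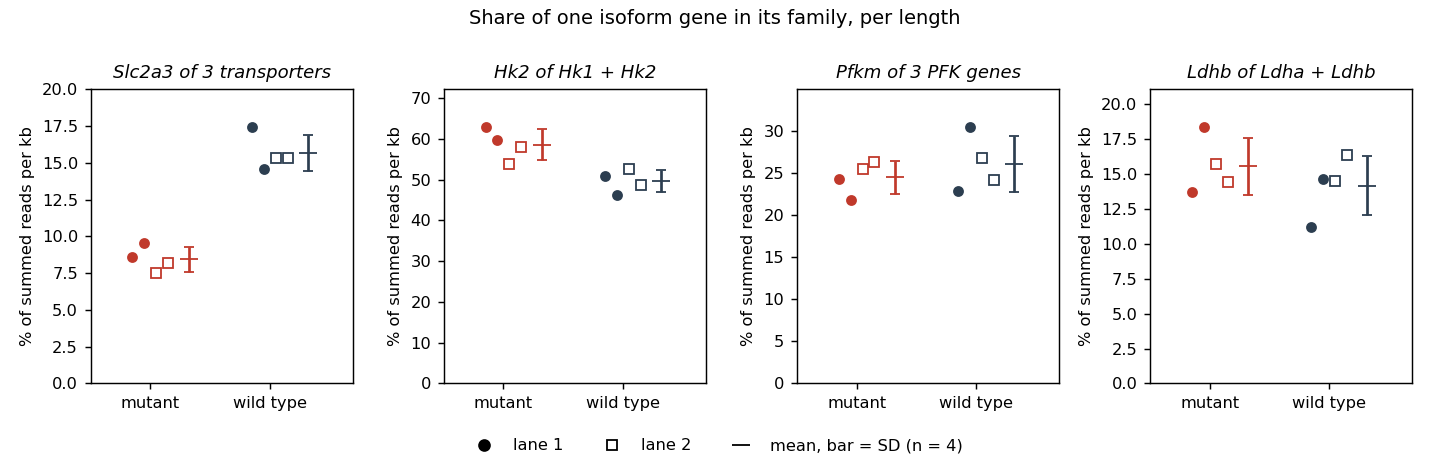
Share of Slc2a3 among the 3 transporters, Hk2 among the 2 hexokinases, Pfkm among the 3 phosphofructokinases and Ldhb among the 2 lactate dehydrogenases, in percent of summed reads per kilobase (vertical axis, from 0), per library with mean and SD of 4. Mutant shares lie below wild type for Slc2a3 and above it for Hk2, and the groups overlap for Pfkm and Ldhb.

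The hexokinases had different signs. Hk1 (ENSMUSG00000037012, chromosome 10, 61731603 to 61842656, minus strand) encodes the widely expressed enzyme that sits on the mitochondrial surface. Its level was 124.0, 111.9, 126.3 and 151.0 CPM in mutant libraries 1 to 4, against 187.5, 199.2, 133.6 and 147.4 CPM in wild-type libraries 1 to 4. Wild-type libraries 1 and 2, both on lane 1, stood above all others, while on lane 2 the groups overlapped. The log2 fold change was -0.38 with an SE of 0.135 and did not pass (adjusted p = 0.282, edgeR). It was -0.71 on lane 1 and -0.02 on lane 2, and this difference between lanes had an unadjusted p of 0.00184 and an adjusted p of 0.0959 (edgeR). On lane 1 alone Hk1 was called lower (adjusted p = 0.00947, edgeR), with 2 libraries per group.

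Hk2 (ENSMUSG00000000628, chromosome 6, 82675041 to 82724453, minus strand), the inducible hexokinase of muscle and of growing cells, had the 1 positive value of the 10 genes. It stood at 138.9, 109.8, 98.1 and 139.1 CPM in mutant libraries 1 to 4, against 128.6, 113.6, 98.0 and 93.3 CPM in wild-type libraries 1 to 4. The groups overlapped, and the log2 fold change of 0.16 with a 95% interval of -0.13 to 0.46 did not pass (adjusted p = 0.721, edgeR). Per length, Hk2 held 62.8%, 59.7%, 53.9% and 58.1% of the hexokinase sum in mutant libraries 1 to 4, against 50.8%, 46.2%, 52.5% and 48.8% in wild-type libraries 1 to 4. The ranges did not overlap, although the nearest libraries, mutant library 3 and wild-type library 3, were close. The mean difference was 12.7 percentage points on lane 1 and 5.36 on lane 2.

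Hk1 was also the 1 gene of the 10 with a score above 0 in the exon test of the authors' deposited table. The authors' deposited table gave -1.85 as the largest log2 ratio of any Hk1 exon, where that of Mef2c was -3.30. By this score Hk1 was at rank 194 of 33495 rows and Mef2c at rank 1. All rows with a score of 0, Slc2a1 among them, shared rank 606, so rank 194 was taken among the rows placed before 606. The table states neither which exon this was nor the direction of the ratio. RefSeq holds 2 starts for Hk1, and their windows are shown because transcripts from separate starts differ in their first exon. Each runs from 250 bases before to 50 bases after the start, in GRCm38.p6, a later build than the mm9 of the counts, and capitals mark the hypoxia response core, ACGTG or GCGTG on either strand.
Hk1 upstream start, chr10:62379859-62380158, minus strand: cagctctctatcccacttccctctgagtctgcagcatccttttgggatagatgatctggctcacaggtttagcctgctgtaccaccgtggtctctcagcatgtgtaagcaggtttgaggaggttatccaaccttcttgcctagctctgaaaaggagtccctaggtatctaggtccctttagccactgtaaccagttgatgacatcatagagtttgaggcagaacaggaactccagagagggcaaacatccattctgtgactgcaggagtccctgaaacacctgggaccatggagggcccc
Hk1 downstream start, chr10:62340372-62340671, minus strand: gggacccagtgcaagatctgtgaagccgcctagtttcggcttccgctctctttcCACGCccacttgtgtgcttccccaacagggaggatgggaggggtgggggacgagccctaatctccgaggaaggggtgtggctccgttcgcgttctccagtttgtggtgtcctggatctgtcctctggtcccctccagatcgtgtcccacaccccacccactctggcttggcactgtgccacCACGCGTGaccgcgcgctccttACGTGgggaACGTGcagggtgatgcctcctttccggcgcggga
The upstream window held 0 of these cores and the downstream window 5, and the GC content was 51.3% and 63.3%.

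None of the 3 phosphofructokinase subunits was called, and all had values below 0. Pfkl (ENSMUSG00000020277, chromosome 10), the liver-type subunit, ranged from 86.3 to 120.7 CPM in mutant and from 103.2 to 141.2 CPM in wild type, and its log2 fold change was -0.20 (edgeR adjusted p = 0.597). Pfkm (ENSMUSG00000033065, chromosome 15), the muscle-type subunit, stood at 34.4, 27.3, 30.1 and 43.0 CPM in mutant libraries 1 to 4, against 45.6, 51.4, 39.8 and 36.1 CPM in wild-type libraries 1 to 4. Mutant library 4 lay inside the wild-type range, and the log2 fold change of -0.36 fell short of the threshold (adjusted p = 0.401, edgeR). On lane 1 alone it was called lower (-0.65, adjusted p = 0.0465, edgeR). Pfkp (ENSMUSG00000021196, chromosome 13), the platelet-type subunit, ranged from 110.8 to 145.7 CPM in mutant and from 128.8 to 212.4 CPM in wild type, and its log2 fold change was -0.34 (edgeR adjusted p = 0.409). It shares 269 bases with Pitrm1 on the other strand. The groups overlapped in the share of each subunit. Pfkl held 47.2% ± 1.44 of the summed RPKM in mutant libraries and 44.7% ± 3.61 in wild type. Pfkm held 24.5% ± 1.96 in mutant libraries and 26.1% ± 3.32 in wild type. Pfkp held 28.4% ± 0.860 in mutant libraries and 29.2% ± 2.50 in wild type (SD, n = 4 each).

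Ldha (ENSMUSG00000063229, chromosome 7, 54096845 to 54110997, plus strand) encodes the subunit that favours lactate production and was the most abundant of the 10 genes. It stood at 1191, 951.9, 922.7 and 1345 CPM in mutant libraries 1 to 4, against 1610, 1352, 1294 and 1114 CPM in wild-type libraries 1 to 4. Mutant libraries 1 and 4 lay inside the wild-type range, and the log2 fold change of -0.28 with a 95% interval of -0.60 to 0.03 did not pass (adjusted p = 0.514, edgeR). The table also held 2 processed copies described as Ldha pseudogenes, with 60 reads in all against 85829 for Ldha. Ldhb (ENSMUSG00000030246, chromosome 6), the subunit that favours lactate use in heart, was the steadiest of the 10 in wild type. It ranged from 90.8 to 119.5 CPM in mutant and from 107.0 to 121.9 CPM in wild type, with a log2 fold change of -0.12 and a 95% interval of -0.33 to 0.09 (adjusted p = 0.715, edgeR). Ldhb made up 15.5% ± 2.02 of the summed RPKM of both subunits in mutant libraries and 14.2% ± 2.14 in wild type (SD, n = 4 each), a difference smaller than the spread between libraries.

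The promoters of Ldha and Slc2a1 are shown because both genes are textbook targets of hypoxia-inducible factor (HIF). A link between HIF and their levels in these libraries was not tested. The windows, the build and the meaning of the capitals are as for Hk1.
Ldha upstream start, chr7:46845554-46845853, plus strand: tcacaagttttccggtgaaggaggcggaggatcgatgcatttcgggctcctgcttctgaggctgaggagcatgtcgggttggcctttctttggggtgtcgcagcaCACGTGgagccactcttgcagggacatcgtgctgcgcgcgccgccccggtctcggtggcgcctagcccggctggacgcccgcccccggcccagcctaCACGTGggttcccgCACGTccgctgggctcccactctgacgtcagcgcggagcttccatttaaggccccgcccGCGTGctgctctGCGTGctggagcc
Slc2a1, chr4:119108495-119108794, plus strand: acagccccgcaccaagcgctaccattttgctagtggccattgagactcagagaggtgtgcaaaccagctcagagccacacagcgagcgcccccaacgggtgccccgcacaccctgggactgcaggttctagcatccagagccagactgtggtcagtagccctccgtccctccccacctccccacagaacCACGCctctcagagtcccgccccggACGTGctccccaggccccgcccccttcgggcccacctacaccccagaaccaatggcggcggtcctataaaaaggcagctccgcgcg
The Ldha window held 7 matches to the core, of which 4 fell in the 2 palindromic E-boxes, CACGTG, which the core matches on both strands, and the Slc2a1 window held 2. Of the 10 genes 8 had windows in the RefSeq table, 13 in all, and 11 of the 13 held at least 1 core, against 43.8% of all 32851 windows of that length. The 13 windows are not independent. Pfkm gave 4 of them, with starts 2 and 3 overlapping in position, and Hk1 and Ldha gave 2 each. The MEF2 consensus was found in 0 of the 13 windows and in 3.19% of all windows, and the E-box in 2 of the 13 and 7.15% of all. Such matches describe the letters of these windows only, and no set of windows of like GC content was compared. The GC content ran from 36.7% to 67.3% in the 13 windows, and the core holds a CG pair. The other 2 genes were Slc2a3 and Slc2a4.

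Per length, the wild-type levels ran from Ldha at 450.1 ± 68.9 RPKM and Slc2a1 at 313.4 ± 63.0 RPKM to Slc2a4 at 4.93 ± 1.64 RPKM (SD, n = 4). Ldha and Slc2a1 overlapped in range. Ldhb at 73.1 ± 3.90 RPKM and Slc2a3 at 59.6 ± 16.7 RPKM followed and overlapped each other. Next came Pfkl at 26.7, Hk1 at 20.2, Hk2 at 19.7, Pfkp at 17.7 and Pfkm at 15.6 RPKM, with each overlapping its neighbour. Clear gaps separated Slc2a1 from Ldhb, Slc2a3 from Pfkl, and Pfkm from Slc2a4. In mutant Slc2a3 stood at 27.4 ± 4.86 RPKM (SD, n = 4), close to Pfkl at 23.3 ± 3.27 RPKM.

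Within each group the same libraries were often the highest or the lowest. Mutant library 4 was the highest of the 4 mutant libraries for 10 of the 10 genes, where 32.3% of all tested genes had it highest. Wild-type library 1 was the highest of its group for 7 of the 10, Slc2a1, Slc2a3, Slc2a4, Hk2, Pfkl, Pfkp and Ldha, where 20.7% of all tested genes had it highest. Wild-type library 2 was highest for the remaining Hk1, Pfkm and Ldhb, where 30.7% of all tested genes had it highest. At the low end, mutant library 3 was lowest for 7 of the 10, where 19.4% of all tested genes had it lowest, and mutant library 2 for Slc2a1, Hk1 and Pfkm, where 28.8% had. The genes are not independent of each other, and these counts are a description of the libraries.

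**Figure D3:**
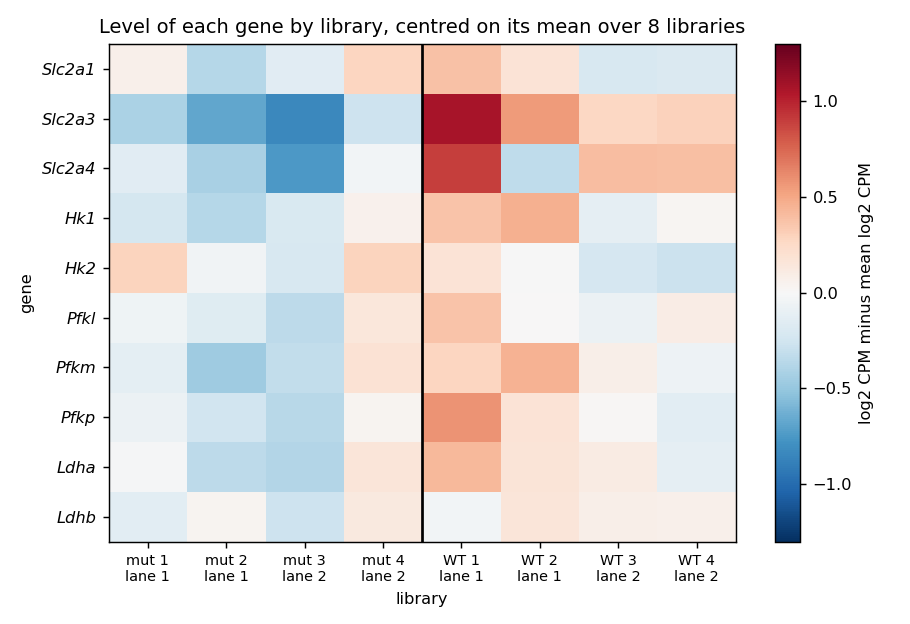
Log2 CPM of the 10 genes (rows) in the 8 libraries (columns, mutant left of the line), each row centred on its mean over the libraries; red is above and blue below that mean. Mutant library 4 is the highest mutant column for all 10 genes, though close to library 1 for Hk2, and Slc2a3 is blue in every mutant and red in every wild-type library.

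The values were also taken within each lane. On lane 1, 9 of the 10 values were below 0 with a median of -0.51, and on lane 2, 8 of the 10 were below 0 with a median of -0.09. The test of group by lane had an unadjusted p under 0.05 for 3 of the 10, Slc2a1, Hk1 and Pfkm, and 0 passed adjustment. Over all tested genes 2445 of 14757 had such a p and 1 passed adjustment (edgeR). The lanes hold different samples, so the lane and the samples on it cannot be told apart.

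**Figure D4:**
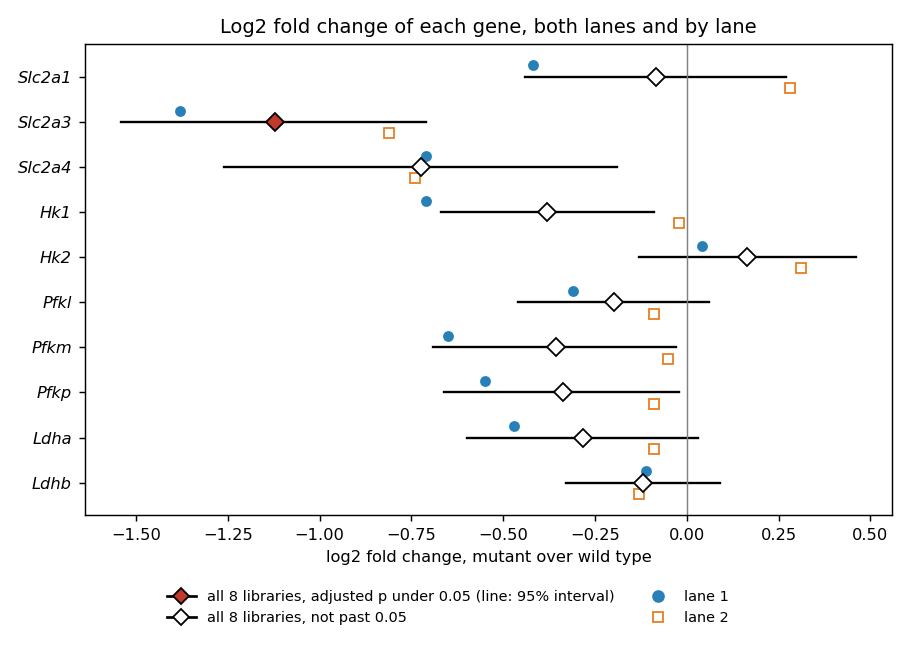
Log2 fold change, mutant over wild type (horizontal axis), of the 10 genes; diamonds with 95% intervals use all 8 libraries and are red where the adjusted p is under 0.05, circles are lane 1 and squares lane 2. Slc2a3 lies left of 0 on both lanes, while the lane 2 values of Hk1, Pfkl, Pfkm, Pfkp, Ldha and Ldhb lie between -0.13 and -0.02.

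Markers of heart muscle were set beside these values. The summed level of 9 cardiomyocyte markers was 25550 to 32780 CPM in mutant and 30850 to 41950 CPM in wild type, so all libraries held heart muscle RNA. These are markers of heart muscle and not of the outflow tract in particular, so they do not check which part was taken. Of these markers 2 fell, the troponin Tnni3 by 0.94 and the myosin Myh7 by 0.48 on the log2 scale (adjusted p = 0.00309 and 0.0325, edgeR), and titin (Ttn), which gave the most reads, was at -0.43 without a call. Values were below 0 for 8 of the 9, with a list median of -0.43, and DESeq2 called 4. The groups did not overlap for 4 of the 9, against 6.72% of all tested genes. The 7 chamber markers summed to 453.8 to 1222 CPM in mutant, highest in library 4, and to 1023 to 1899 CPM in wild type, highest in library 2. One of them fell, the light chain Myl3 by 1.56 (adjusted p = 0.0325, edgeR), while the more abundant Myl2 was at -0.68. Tnni3 kept its call in all 22 alternatives, while Myh7 lost it in 12 (adjusted p up to 0.488, edgeR) and Myl3 in 11 (adjusted p up to 0.4, edgeR), each with its largest adjusted p on lane 2 alone. With the mean level of the chamber markers as a covariate, Slc2a3 had a log2 fold change of -0.92 and was not called (adjusted p = 0.145, edgeR), and Slc2a1 turned to 0.18. The cardiomyocyte level was tried in its place, a choice made once the values were known. With it Slc2a3 had -0.73 (adjusted p = 0.0906, edgeR), Slc2a1 0.32, Pfkm 0.03 and Ldha 0.01. Both covariates themselves ran lower in mutant. The mean log2 CPM was 9.49 to 9.84 in mutant and 9.75 to 10.27 in wild type for cardiomyocyte markers. For chamber markers it was 4.13 to 6.13 in mutant and 5.13 to 6.61 in wild type. These fits therefore cannot fully tell the covariate from the group. Without mutant library 4 and wild-type library 2 Slc2a3 stood at -1.23 (adjusted p = 0.0939, edgeR).

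Markers of other cell types were also set beside Slc2a3, as GLUT3 is known from neurons, platelets and white blood cells. The 4 neuronal markers, of which 3 were tested, summed to 27.5 to 38.4 CPM in mutant and 26.3 to 34.8 CPM in wild type, with a median log2 fold change of 0.14 over the 3. None of them was called, and they stood at -0.24 for Tubb3, the most abundant, 0.14 for Elavl4 and 0.50 for Stmn2, the last with an unadjusted edgeR p of 0.049. Elavl4 and Stmn2 were named after their values were seen. Macrophage markers summed to 8.77 to 10.5 CPM in mutant and 7.70 to 25.6 CPM in wild type, and megakaryocyte and platelet markers to 6.36 to 18.1 CPM in mutant and 8.66 to 55.3 CPM in wild type. The most abundant of them, Laptm5 at -0.98 and Pf4 at -1.40, were not called. Erythroid markers, among them the embryonic globin Hba-x at -0.45 without a call, summed to 1674 to 9396 CPM in mutant and 3614 to 14420 CPM in wild type. With their mean level as a covariate Slc2a3 was still called (-1.17, adjusted p = 0.00525, edgeR).

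The summed levels of some non-muscle markers were higher in mutant. The 8 endothelial markers summed to 636.2 to 818.5 CPM in mutant and 496.5 to 628.9 CPM in wild type, without overlap. Their mean log2 CPM did overlap, at 5.86 to 6.34 in mutant and 5.70 to 6.09 in wild type. Of the 8 markers 7 had values above 0, and the lowest was at -0.87. One of them rose, the angiopoietin receptor Tek by 0.74 on the log2 scale (adjusted p = 0.0013, edgeR), a call lost on lane 2 alone (0.58, adjusted p = 0.0763, edgeR), while Cdh5, the most abundant, was at 0.10. Tek alone gave 149.3 to 183.4 CPM of the sum in mutant and 96.6 to 111.3 CPM in wild type. Hepatic and yolk sac markers summed to 11.7 to 60.1 CPM in mutant and 1.91 to 10.4 CPM in wild type, without overlap. In mean log2 CPM they overlapped, at 0.56 to 2.47 in mutant and -0.98 to 0.58 in wild type. Afp, the most abundant, was at 3.20 and not called (adjusted p = 0.178, edgeR), though DESeq2 called it (adjusted p = 0.0346). Of the 3 tested hepatic and yolk sac markers edgeR called 0, with 3 at an unadjusted p under 0.05, DESeq2 called 2 and limma-voom 0. The 4 epicardial markers, all with values above 0, summed to 170.5 to 222.1 CPM in mutant and 98.9 to 179.1 CPM in wild type, and Upk3b, the most abundant, was at 0.47. Of these edgeR called 0, with 3 at an unadjusted p under 0.05, DESeq2 called 1 and limma-voom 0. Among all 14757 tested genes an unadjusted edgeR p of 0.0502 had rank 1682, counted from the smallest. Epithelial markers, with Krt18 the most abundant at -0.30 and not called, summed to 126.5 CPM in wild-type library 4 and to 47.8 to 61.6 CPM in the other 7 libraries. The part of the neuronal, blood, endothelial, hepatic, epicardial and epithelial markers in the results above was not tested, apart from the erythroid covariate.

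The rest of the pathway was read from 7 lists of genes around these steps. Of 11 other hexose transporters 6 were tested, of which 1 fell, Slc2a12, and 5 did not pass, with a list median of -0.08. Slc2a12 encodes GLUT12, another carrier that insulin can move in muscle. It stood at 1.22, 0.890, 1.67 and 1.60 CPM in mutant libraries 1 to 4, against 4.27, 2.89, 3.30 and 3.42 CPM in wild-type libraries 1 to 4. The groups did not overlap, and the log2 fold change was -1.35 ± 0.298 (SE, adjusted p = 0.0436, edgeR). The gene had 167 reads in all and shares 407 bases with Tbpl1 on the other strand, which had 4091 reads. Its call was lost in 18 of 22 alternatives, among them leaving out any 1 library other than wild-type library 2, at values of -1.47 to -1.21 and an adjusted p of up to 0.151 (edgeR). Slc2a8, the most abundant of this list per length, was at -0.20 (adjusted p = 0.804, edgeR).

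Control of glucose uptake held 1 gene that fell and 1 that rose among 15 tested of 15 listed, with a list median of 0.03. Tbc1d4, also called AS160, the GTPase-activating protein that holds GLUT4 inside muscle and fat cells until insulin acts, fell. It stood at 17.4, 14.9, 19.3 and 14.1 CPM in mutant libraries 1 to 4, against 50.3, 35.8, 32.1 and 31.0 CPM in wild-type libraries 1 to 4. The groups lay far apart, with a log2 fold change of -1.18 ± 0.170 (SE, adjusted p = 0.00366, edgeR). Its call was lost on lane 2 alone (-0.92, adjusted p = 0.0642, edgeR). Irs1, an adaptor of the insulin and IGF receptors, rose. It stood at 237.7, 197.5, 215.3 and 212.9 CPM in mutant libraries 1 to 4, against 176.0, 136.2, 133.7 and 151.2 CPM in wild-type libraries 1 to 4, again without overlap. The log2 fold change was 0.53 ± 0.104 (SE, adjusted p = 0.0240, edgeR). Its call was lost in 7 of 22 alternatives, with an adjusted p of up to 0.149 (edgeR). Among them were the fits without mutant library 1 or 3 or wild-type library 3 (adjusted p = 0.1, 0.0864 and 0.0745, edgeR). Others were lane 1 alone and lane 2 alone (adjusted p = 0.0972 and 0.0716, edgeR). Mef2a, a relative of the targeted gene and the most abundant of this list per length, was at 0.29 (adjusted p = 0.219, edgeR).

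Between glucose phosphate isomerase and pyruvate kinase, 15 genes were listed and 14 tested, of which 2 fell and 12 did not pass. Both are muscle forms, the enolase Eno3 and the phosphoglycerate mutase Pgam2. Eno3 ranged from 87.7 to 123.4 CPM in mutant and from 156.7 to 184.9 CPM in wild type and fell by 0.59 on the log2 scale (adjusted p = 0.0197, edgeR). Pgam2 ranged from 72.8 to 94.9 CPM in mutant and from 103.7 to 124.1 CPM in wild type and fell by 0.48 (adjusted p = 0.0323, edgeR). The call of Eno3 was lost in 6 of 22 alternatives, among them without mutant library 3 (adjusted p = 0.0838, edgeR). Others were the chamber or cardiomyocyte level as a covariate (adjusted p = 0.0873 and 0.0982, edgeR) and lane 2 alone (adjusted p = 0.128, edgeR). The call of Pgam2 was lost in 12 of 22 alternatives, among them without mutant library 2, 3 or 4 or wild-type library 1 or 3 (adjusted p = 0.108, 0.104, 0.0696, 0.104 and 0.0798), on lane 1 and on lane 2 alone (0.119 and 0.091), with lane as a covariate (0.0567) and with library size alone (0.0636, edgeR throughout). The list's median was -0.19 over both lanes, -0.48 on lane 1 and 0.11 on lane 2. Gapdh, its most abundant member per length, had -0.25 over both lanes (adjusted p = 0.618, edgeR), -0.57 on lane 1 and 0.08 on lane 2, and has many processed copies in the mouse genome.

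Among HIF genes and HIF targets 1 of 23 tested genes (23 listed) fell and 22 did not pass, with a list median of -0.09. Hif1a, the oxygen-regulated subunit itself, stood at 259.6, 250.3, 240.6 and 248.0 CPM in mutant libraries 1 to 4, against 381.2, 385.2, 331.6 and 308.1 CPM in wild-type libraries 1 to 4. The mutant libraries were within a narrow range below all wild-type ones, with a log2 fold change of -0.49 ± 0.0963 (SE, adjusted p = 0.0229, edgeR). Hif1a shares 21050 bases of its span with AC124712.2 on the other strand, which had 1368 reads against 20819. Its call was lost without mutant library 1, 2 or 3 or wild-type library 1 (adjusted p = 0.0665, 0.0676, 0.0935 and 0.0708, edgeR), and with the chamber or cardiomyocyte level as a covariate (adjusted p = 0.0748 and 0.123, edgeR). On lane 2 alone it had -0.40 and was not called (adjusted p = 0.298, edgeR). Higd1a, the most abundant member per length, was at -0.51 (adjusted p = 0.533, edgeR).

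**Figure D5:**
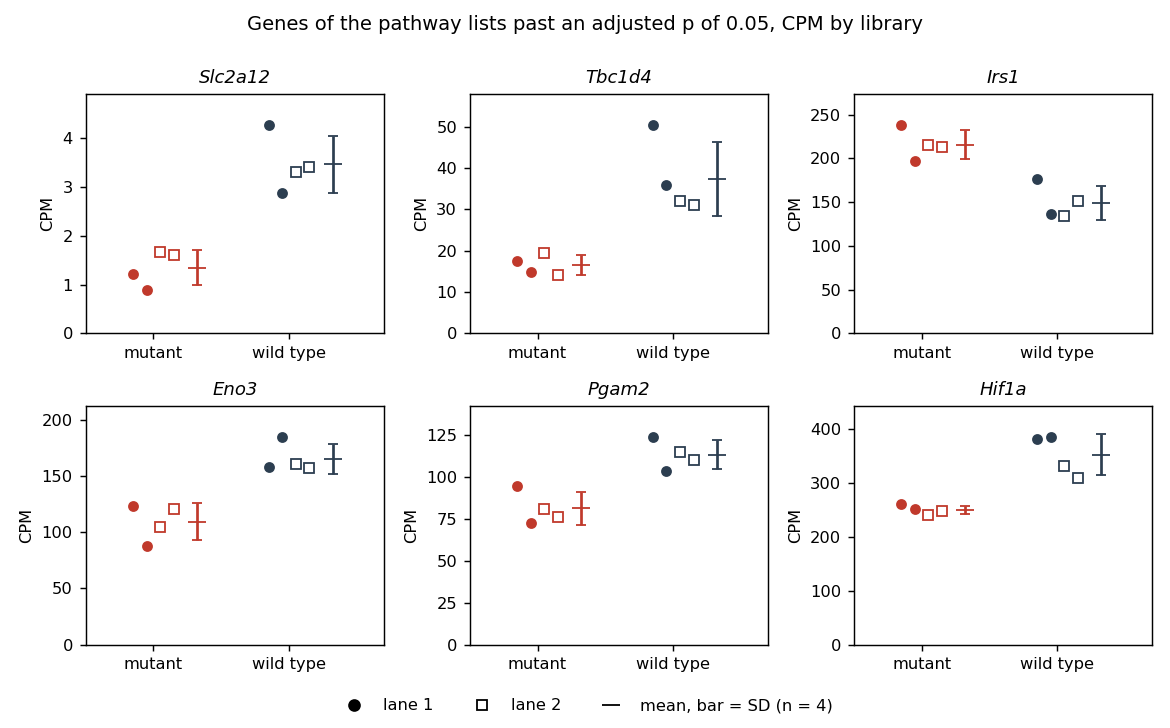
CPM (vertical axes, from 0) of the 6 genes of the pathway lists with an adjusted p under 0.05, in 4 mutant and 4 wild-type libraries, with circles for lane 1, squares for lane 2 and mean and SD of 4 beside them. Slc2a12, Tbc1d4, Eno3, Pgam2 and Hif1a lie lower in mutant and Irs1 lies higher, and no panel shows overlap between the groups. The panels were picked by their call in these libraries, so this separation is not a further result.

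The other 3 lists held 0 called genes at the adjusted p of 0.05 (edgeR). They were the other hexokinases with the regulators of phosphofructokinase (5 of 10 tested, median -0.11), the fate of lactate and pyruvate (17 of 18 tested, median -0.21) and the pentose phosphate branch (7 of 7 tested, median -0.09). At an unadjusted p under 0.05 the numbers were 0, 4 and 0 in that order, DESeq2 called 0, 1 and 0, and limma-voom called 0 in each. For all 14757 tested genes, rank 1682 from the smallest had an unadjusted edgeR p of 0.0502. Their most abundant members per length were Pfkfb3, which makes an activator of phosphofructokinase, at -0.09, Bsg, the partner of lactate carriers, at 0.02, and the transketolase Tkt at -0.09.

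The authors' deposited table gave its own comparison of the same libraries. There Slc2a3 had a modified log2 fold change of -0.51, pooled values of 27.9 FPKM in mutant and 60.9 FPKM in wild type, and a false discovery score of 152.4, a larger score standing for a smaller rate. In the authors' deposited table Slc2a4, at a score of 17.1, was also past a rate of 0.05, with pooled values of 3.04 FPKM in mutant and 5.04 FPKM in wild type, although its modified log2 fold change was 0.03. The other 8 genes were not past that rate in the authors' deposited table, and 1.73% of its rows were.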

How the data were processed

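RNA sequencing libraries were made with a Qiagen RNA kit and NuGEN reagents, per the labels' protocols. The submitters' processing notes name TopHat2 (version 2.0.4) and the build mm9. How reads were counted per gene, whether by strand and with which annotation, is not given in the sources used here. In 1 table the authors deposited whole-number raw counts per gene, normalized log2 values per library that were not used, a modified log2 fold change from USeq, a pooled FPKM value for each group, and a score for the false discovery rate that grows as the rate shrinks, per the file headers. Exon lengths and an exon test score of unstated scale were also deposited. All columns holding values of single samples were mapped to a sample.

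After filterByExpr, library sizes were scaled (trimmed mean of M values) and counts tested with the quasi-likelihood test of edgeR 4.0.16 in R 4.3.3, with robust dispersion and the group alone in the design. P-values were two-sided and adjusted over 14757 genes at a threshold of 0.05. Interactions with lane used the same counts. The SE was the log2 fold change divided by the square root of F. The labels state no pairing by replicate number, and the main fit used none. Alternatives used limma 3.58.1 and DESeq2 1.42.0, other scalings, filters, covariates and subsets of libraries. The procedure was tested on simulated data. Python 3.11.15 drew the figures.

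The 10 genes, the lists and the alternatives were chosen with earlier results of these data known. All 10 genes are named, with the called members and the member of highest level per length of each pathway list, and the called and most abundant members of marker lists shown beside a result. Abundance of markers was by total reads. The labels mention no molecular identifiers. Coordinates of genes are 1-based on mm9, and RefSeq windows are on GRCm38.p6.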

Additional observations from a re-analysis of the deposited data

Results flagged for a closer look

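Each of the 38 named genes, and each gene's share of its family, was searched in both groups for 1 library far from the other 3. This held in 4 of the 96 groups looked at, where about 1 in 20 is the rate by chance. In log2 CPM, Pfkfb3 stood at 5.82 in wild-type library 1, against 5.08 to 5.13 in the other wild-type libraries. Eno3 stood at 7.53 in wild-type library 2, against 7.29 to 7.33 in the other 3, and Myh7 at 11.75 in wild-type library 4, against at least 11.96. The share of Slc2a4 among the 3 transporters was 0.74% in wild-type library 2, against 1.45% to 1.57% in the other wild-type libraries.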

How the results depend on the processing

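The count of 222 called genes became 440 with DESeq2, 76 with a replicate block, 836 on lane 1 alone, 119 on lane 2 alone, 95 when the 2 libraries without Y-linked reads were left out and 370 with the cardiomyocyte level as a covariate, and leaving out 1 library gave 110 to 231. With library size alone the calls split into 109 higher and 122 lower, against 83 and 139. Slc2a3 kept its direction in all 22 alternatives (-1.38 to -0.73) and its call in 16, including the replicate block, and also lost it when the 2 libraries without Y-linked reads were left out (-1.25, adjusted p = 0.0509, edgeR). Its share among the transporters differed by -7.55 to -6.62 percentage points. Same-numbered samples had correlations of deviations of -0.050, -0.212, 0.222 and -0.287. Such values, of both signs, cannot decide whether the numbers pair the samples. With the block Slc2a12, Pgam2, Eno3, Irs1, Hif1a, Myl3 and Myh7 lost their calls. No symbol of the 10 had several rows, so summing rows gave no value. Signs turned for genes that were not called. On lane 1 alone Bsg had -0.08 and Hba-x 0.08. On lane 2 alone Slc2a1 had 0.27, Slc2a8 0.15, Pfkfb3 0.27, Gapdh 0.08, Tkt 0.06, Higd1a 0.06, Cdh5 -0.05 and Myl2 0.37. Leaving out 1 library gave -0.20 to 0.04 for Slc2a1, -0.05 to 0.11 for Bsg, -0.19 to 0.12 for Pfkfb3, -0.01 to 0.17 for Cdh5 and -0.85 to 0.11 for Hba-x. Bsg had -0.05 without mutant library 4 and wild-type library 2, the highest of each group in chamber genes, and -0.06 with the libraries lacking Y-linked reads left out. With the chamber level as a covariate Slc2a1 had 0.18, Slc2a8 0.12, Pfkfb3 0.07, Gapdh 0.04 and Myl2 0.16. With the cardiomyocyte level Slc2a1 had 0.32, Pfkm 0.03, Ldha 0.01, Slc2a8 0.13, Pfkfb3 0.17, Gapdh 0.11, Tkt 0.01, Higd1a 0.14 and Myl2 0.37. The cause was not tested. Depth limits Slc2a4 and Slc2a12, with 791 and 167 reads in all.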
